A study of Mus musculus with 12 samples.

Results

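The 9 genes described here serve cannabinoid and opioid signaling. They are Cnr1, the CB1 cannabinoid receptor, 4 enzymes that make or break down endocannabinoids (Dagla, Mgll, Napepld and Faah), and the 4 opioid receptor genes Oprm1, Oprd1, Oprk1 and Oprl1. They were chosen by name, as the rows whose Ensembl identifiers carry these symbols in Gencode vM1. Each symbol matched 1 row, so the set holds 9 of the 37310 genes counted.

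The libraries come from ventral hippocampus (vHPC) of C57BL/6 mice and separate the RNA on ribosomes of neurons that project to nucleus accumbens (NAc) from the RNA of the whole punch. All mice carried Rosa26 eGFP/L10a, a Cre-dependent ribosomal protein fused to GFP, and all received a retrograde HSV-Cre in NAc, under the hEf1α promoter, 3 weeks before collection. KO mice also carried FosB fl/fl, so in them Cre removes floxed exons of the FosB gene, in the cells it reaches, whereas WT mice were littermates without the floxed allele. The 12 libraries form 4 groups of 3 pools, namely WT and KO for TRAP and WT and KO for input, and each pool of mice gave 1 TRAP and 1 input library. TRAP (translating ribosome affinity purification) pulls down the GFP-tagged ribosomes, and input is the RNA of the whole punch, which includes cells the vector did not reach. A library was taken as TRAP when its title lacked the word input. Each pool held 3 mice by its source label and 3 to 4 by the protocol, the pools are numbered 1 to 3 in WT and 2 to 4 in KO, and the age of these mice is not given in the sources used here.

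Endocannabinoids are lipids made on demand by a neuron that has been depolarized or whose Gq-coupled receptors are active. Dagla encodes DAGLα, which makes 2-arachidonoylglycerol (2-AG), and Mgll encodes monoacylglycerol lipase, which breaks most of it down. Napepld encodes an enzyme that can make anandamide, and Faah encodes the hydrolase that degrades it. Both lipids act mainly on CB1, a Gi/o-coupled receptor that sits on axon terminals and reduces transmitter release. In hippocampus, CB1 is densest on terminals of GABA interneurons that contain cholecystokinin and is present at lower levels in pyramidal neurons and astrocytes. The μ, δ, κ and nociceptin receptors, encoded by Oprm1, Oprd1, Oprk1 and Oprl1, are coupled to Gi/o as well and are known to reduce excitability and transmitter release, with the μ and δ receptors prominent on hippocampal interneurons.

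The total count on genes was lowest at 3416030 and highest at 5614089, and the median library had 4296057. Expression is given in CPM, the counts of a gene relative to its library total, after TMM scaling, and 3 counts, taken as the floor of detection, correspond to 0.534 to 0.878 CPM before that scaling. This floor and the intervals named below as counting intervals cover counting error only, whereas the edgeR intervals include the spread between pools. Fosb, the targeted gene, stood at 32.1 to 45.3 CPM in WT TRAP and 18.8 to 29.4 CPM in KO TRAP, and at 22.3 to 30.3 CPM in WT input and 14.9 to 17.1 CPM in KO input. These are counts over the whole gene, including exons that are not removed. KO TRAP replicate 2 stood apart in some genes of GABA neurons, with Gad2 at 187 CPM against 27.6 to 49.4 CPM in the other 5 TRAP libraries. Slc32a1 was at 26.6 CPM against 2.94 to 6.60 CPM. Npy, Sst, Pvalb and Dlx1 were not high in it, as no KO TRAP library exceeded their highest WT TRAP value. Npy was at 12.7 to 19.85 CPM in KO TRAP and 24.5 to 52.6 CPM in WT TRAP. The 6 hypothalamus and amygdala markers listed summed to 219 CPM in KO TRAP 2 and to 121 to 163 CPM in the other 5. Results that rest on TRAP libraries are therefore also given without KO TRAP 2 where that changes them.

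Start-site regions are shown because FosB protein acts as part of AP-1, whose binding letters can be looked for there. They are those of Cnr1, Mgll and Oprm1, which had lower ratios of TRAP to input, with Oprm1 near the floor. That choice does not concern FosB, as no member passed the test of KO against WT. RefSeq (GRCm38.p6) gave 14 windows, from 250 bases before to 50 bases after a start, for 7 of the 9 genes. Dagla and Oprk1 had no entry. None of the 14 windows held TGACTCA, the AP-1 letters, or TGAGTCA, the same letters on the other strand, which 5.20% of all 32851 promoters held. None held TGACGTCA, the cAMP response element, which reads the same on both strands and which 1.79% of all promoters held. In the 250 bases before the start, 7 of the 14 windows, from 5 genes, held a match to AP-1 with 1 mismatch, and 46.5% of all promoters held a match with at most 1 mismatch. The 250 bases before a start are printed 5′ to 3′ on the plus strand, for 1 of 3 windows of Cnr1, 1 of 2 of Mgll and 1 of 3 of Oprm1. Each printed window is one that held a match with 1 mismatch. Another window of Cnr1 also held one, and the remaining windows of these 3 genes held none. Capitals mark the match with 1 mismatch, which begins 227 bases before the start in Cnr1, 114 in Mgll and 94 in Oprm1.
Cnr1, chr4:33924394-33924643: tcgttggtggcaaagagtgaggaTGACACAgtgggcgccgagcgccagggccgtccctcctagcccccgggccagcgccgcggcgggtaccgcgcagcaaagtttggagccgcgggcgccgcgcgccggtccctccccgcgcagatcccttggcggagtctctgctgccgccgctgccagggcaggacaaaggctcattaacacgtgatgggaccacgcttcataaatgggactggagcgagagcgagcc
Mgll, chr6:88724454-88724703: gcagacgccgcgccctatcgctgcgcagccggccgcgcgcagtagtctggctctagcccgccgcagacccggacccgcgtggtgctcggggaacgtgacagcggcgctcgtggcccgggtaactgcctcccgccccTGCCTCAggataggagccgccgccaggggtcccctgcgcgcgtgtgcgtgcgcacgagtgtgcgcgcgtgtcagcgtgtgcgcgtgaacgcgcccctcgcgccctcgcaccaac
Oprm1, chr10:6758343-6758592: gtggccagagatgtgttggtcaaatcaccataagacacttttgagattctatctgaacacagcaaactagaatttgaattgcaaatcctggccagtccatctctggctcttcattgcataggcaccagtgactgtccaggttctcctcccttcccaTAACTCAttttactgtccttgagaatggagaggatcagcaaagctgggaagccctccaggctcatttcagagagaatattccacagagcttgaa
A match of letters is a description of the sequence and not a binding site, and these libraries do not measure binding. The windows differ in composition, from 46.3% to 79.3% G and C over the 14.

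In TRAP, 6 of the 9 genes stood at similar levels per length and the 3 classical opioid receptors stood far below them. Per kilobase of exon (CPM divided by the length of all annotated exons), WT TRAP ran in the order Cnr1 at 8.05 ± 1.23 (SD, n = 3), Napepld at 7.91 ± 2.85, Dagla at 6.93 ± 1.19, Oprl1 at 6.92 ± 1.41, Mgll at 6.59 ± 2.14 and Faah at 4.71 ± 0.367 CPM per kilobase. Each of these neighbours overlapped the next over the 3 libraries. Oprd1 followed at 0.935 ± 0.373 CPM per kilobase, clear of Faah, and Oprk1 and Oprm1 stood at 0.0966 ± 0.0248 and 0.0930 ± 0.0254 CPM per kilobase and overlapped each other. KO TRAP had Cnr1 first at 10.7 ± 1.79 CPM per kilobase, not overlapping Oprl1 at 7.09 ± 0.777 CPM per kilobase, and the same bottom 3 genes. The nociceptin receptor gene Oprl1 was thus the most abundant opioid receptor transcript in all 4 groups, and its lowest library lay above the highest library of Oprd1, the next, in each group.

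The order was different in input, where Mgll and Cnr1 stood at the top. WT input had Mgll at 18.0 ± 2.94 (SD, n = 3) and Cnr1 at 13.7 ± 1.69 CPM per kilobase, which overlapped each other, and Dagla at 8.22 ± 0.647 CPM per kilobase, clear of both. KO input had Mgll at 19.3 ± 0.607, Cnr1 at 16.8 ± 3.25 and Dagla at 8.23 ± 0.987 CPM per kilobase. Oprl1, Napepld and Faah followed between 3.99 and 7.33 CPM per kilobase in both genotypes, each overlapping the next in the order. Oprd1, Oprm1 and Oprk1 were again last, at 0.223 to 1.78 CPM per kilobase.

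**Figure D1:**
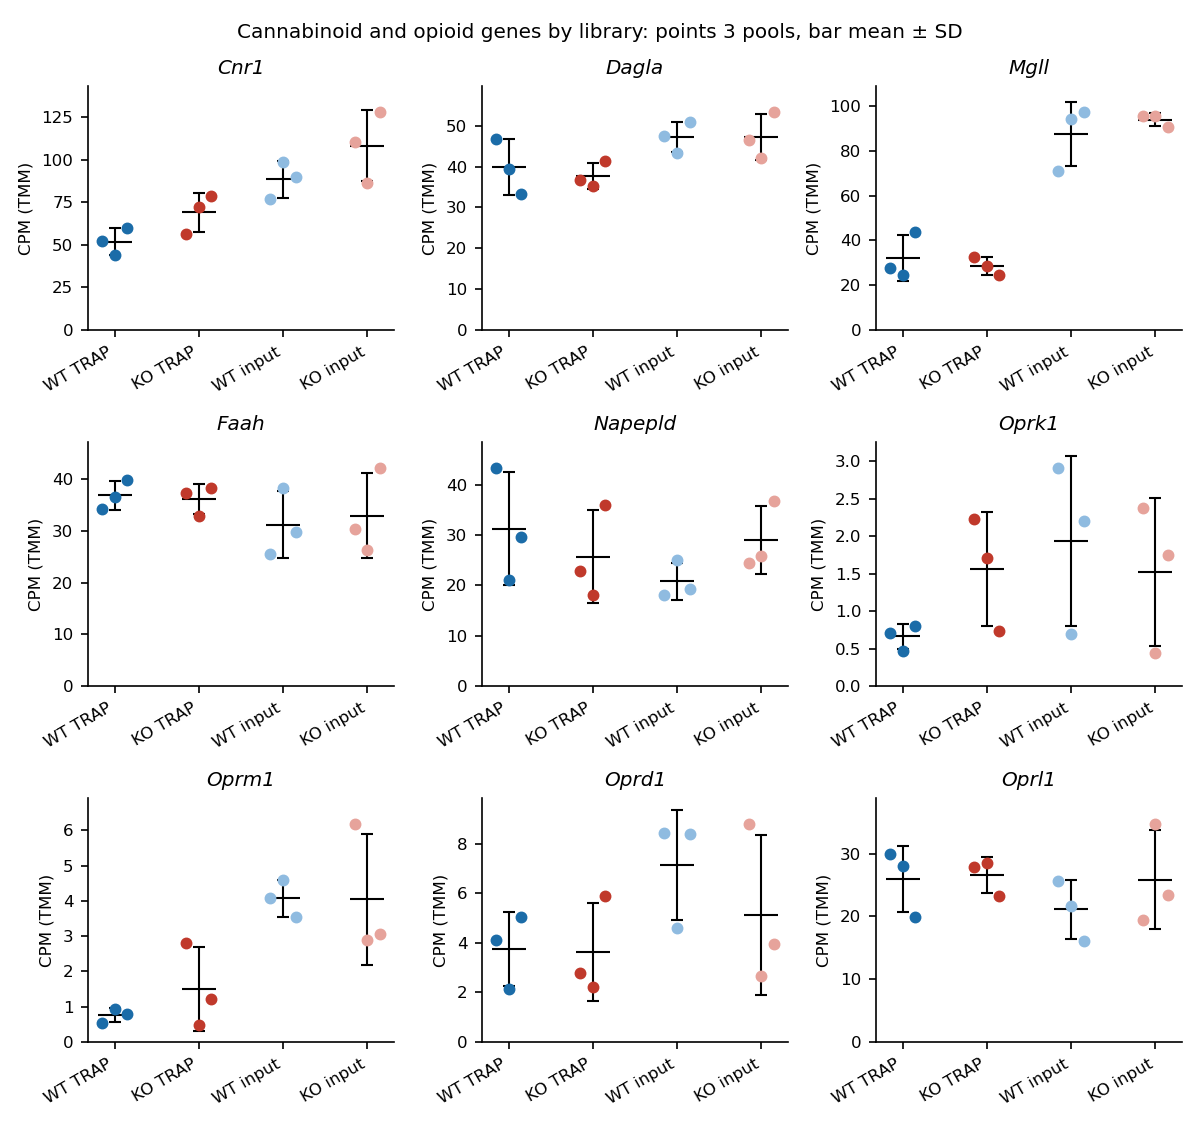
Level of each of the 9 genes in CPM (TMM-scaled) in the 12 libraries, 1 point per pool and the mean ± SD per group, each panel with its own linear axis from 0. Mgll in TRAP, at 24.5 to 43.9 CPM, lies below all input libraries, at 71.0 to 97.3 CPM, whereas Faah and Oprl1 overlap between TRAP and input.

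TRAP against input asks which transcripts are more or less abundant on ribosomes of NAc-projecting neurons than in the tissue around them. Over both genotypes, 3 of the 8 genes tested were lower in TRAP (Mgll, Cnr1 and Oprm1) and 0 were higher. Oprm1 did not pass the filter on low counts among TRAP libraries alone and entered this fit only through input, where it is high, so its lower level in TRAP is a description and adds nothing to the count for Mgll and Cnr1. Of all 13214 genes tested, 22.5% were lower and 19.6% higher at the same threshold, an edgeR adjusted p under 0.05. The other 5 genes did not pass, and 4 of the 8 had an unadjusted p under 0.05, a share near the 48.9% of all genes tested. The median log2 ratio of the 8 genes was -0.49, and that of the 7 without Oprm1 was the ratio of Dagla, -0.28, against -0.01 over all genes tested. Without pool 2 of KO the counts were again 3 lower and 0 higher, and the median of the 8 was -0.29. In bulk samples, fewer cells of a type and less RNA per cell cannot be told apart.

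Mgll, the enzyme that ends 2-AG signaling, had the smallest p of the 8. The gene lies on chromosome 6, from 88674406 to 88778354 on the plus strand of mm9, and 90 bases of its exons (1.85%) are shared with an antisense transcript, Gm16628. Its CPM was 27.8, 24.5 and 43.9 CPM in WT TRAP 1 to 3, at 32.4, 28.6 and 24.7 CPM in KO TRAP 2 to 4, at 71.0, 94.2 and 97.3 CPM in WT input 1 to 3 and at 95.5, 95.7 and 90.5 CPM in KO input 2 to 4. All 6 TRAP libraries lay below all 6 input libraries. The log2 ratio of TRAP to input was -1.59 (SE 0.13, 95% interval -1.85 to -1.33, edgeR adjusted p = 1.44e-10), which places TRAP at 33.2% of input. Within the 6 pools the log2 ratio ranged from -1.92 to -1.14, lower in 6 of 6 pools (exact sign-flip permutation p = 0.03125, the smallest 6 pools can give).

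Cnr1, on chromosome 4 from 34011568 to 34035806 on the plus strand of mm9, was lower in TRAP by less. Its level was 52.0, 43.8 and 59.6 CPM in WT TRAP 1 to 3, at 56.2, 72.1 and 78.6 CPM in KO TRAP 2 to 4, at 76.9, 98.5 and 90.0 CPM in WT input 1 to 3 and at 111, 86.1 and 128 CPM in KO input 2 to 4. TRAP and input did not overlap within WT or within KO, although KO TRAP 4 was above WT input 1. The log2 ratio was -0.71 (SE 0.11, 95% interval -0.94 to -0.48, edgeR adjusted p = 1.22e-05), which places TRAP at 61.1% of input. The ratio was lower in 6 of 6 pools, from -1.16 to -0.26 (exact sign-flip permutation p = 0.03125).

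Dagla, which makes 2-AG, was closer to even. The gene lies on chromosome 19 from 10319755 to 10379367 on the minus strand of mm9. The libraries gave 46.9, 39.4 and 33.3 CPM in WT TRAP 1 to 3, at 36.6, 35.2 and 41.4 CPM in KO TRAP 2 to 4, at 47.5, 43.4 and 50.8 CPM in WT input 1 to 3 and at 46.6, 42.1 and 53.3 CPM in KO input 2 to 4. The groups overlapped in WT and separated narrowly in KO, from a highest TRAP library of 41.4 CPM to a lowest input library of 42.1 CPM. The log2 ratio of -0.28 (SE 0.12, 95% interval -0.53 to -0.04) missed the threshold with an edgeR adjusted p of 0.0554. The sign was the same in 6 of 6 pools (exact sign-flip permutation p = 0.03125, not adjusted over the members). With the pool as a replicate block the log2 ratio was -0.29 and the adjusted p 0.0483, with RLE size factors -0.29 and 0.0496, without mitochondrial genes -0.29 and 0.0497, and without pool 1 of WT -0.34 and 0.0323. Without pool 3 of WT they were -0.20 and 0.256, and leaving out pool 2 of WT or any KO pool did not bring the adjusted p under the threshold.

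Because both enzymes of 2-AG were counted in the same library, their ratio does not depend on scaling. The count of Mgll over the count of Dagla was 0.593, 0.623 and 1.32 in WT TRAP 1 to 3, 0.886, 0.813 and 0.598 in KO TRAP 2 to 4, 1.497, 2.17 and 1.91 in WT input 1 to 3 and 2.05, 2.28 and 1.70 in KO input 2 to 4. Every TRAP library lay below every input library, with WT TRAP 3 the nearest. The log2 ratio of Mgll to Dagla was lower in TRAP by a mean of -1.31 ± 0.43 (SD over 6 pools), in 6 of 6 pools, and that of Mgll to Cnr1 by -0.89 ± 0.36, also in 6 of 6. Each had an exact sign-flip permutation p of 0.03125, or 0.0625 after Benjamini-Hochberg adjustment over the 4 ratios examined. The log2 ratio of Cnr1 to Dagla had a mean difference of -0.42 ± 0.40, negative in 4 of 6 pools (exact permutation p = 0.125, adjusted 0.167).

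**Figure D2:**
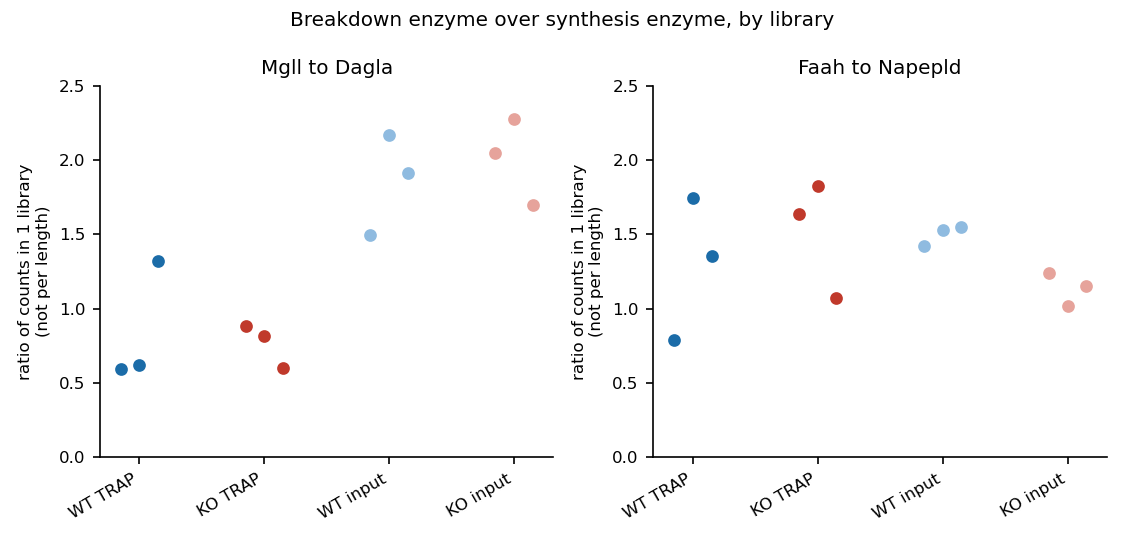
Ratio of the counts of a breakdown enzyme to those of a synthesis enzyme in each library, by group, for 2-AG (Mgll to Dagla) and anandamide (Faah to Napepld), linear axes from 0 and not per length. Mgll to Dagla runs from 0.593 to 1.32 in TRAP and from 1.497 to 2.28 in input without overlap, whereas Faah to Napepld overlaps between TRAP and input.

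The anandamide enzymes did not pass the test in either direction. Faah, on chromosome 4 from 115639750 to 115690531 on the minus strand of mm9, stood at 34.2, 36.5 and 39.9 CPM in WT TRAP 1 to 3, at 37.5, 33.0 and 38.4 CPM in KO TRAP 2 to 4, at 25.6, 38.4 and 29.8 CPM in WT input 1 to 3 and at 30.4, 26.3 and 42.2 CPM in KO input 2 to 4. The TRAP libraries lay within a narrow band that the input libraries straddled. The log2 ratio of 0.18 (SE 0.14, 95% interval -0.10 to 0.47) had an edgeR adjusted p of 0.301 and was positive in 4 of 6 pools, and it was 0.30 without pool 4 of KO.

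Napepld lies on chromosome 5 from 21168719 to 21207214 on the minus strand of mm9. It had the largest SD of the enzymes in WT and KO TRAP, 11.3 and 9.26 CPM, but not in input. Its levels were 43.3, 21.0 and 29.6 CPM in WT TRAP 1 to 3, at 22.9, 18.1 and 36.0 CPM in KO TRAP 2 to 4, at 18.1, 25.0 and 19.2 CPM in WT input 1 to 3 and at 24.5, 25.8 and 36.7 CPM in KO input 2 to 4. WT TRAP 1 and 3 lay above all WT input libraries and WT TRAP 2 between them, whereas each KO TRAP library lay below the input library of its own pool. The log2 ratio over both genotypes was 0.21 (SE 0.19, edgeR adjusted p = 0.398), and it was 0.02 without pool 1 of WT and 0.40 without pool 2 of WT. In WT alone it was 0.60 (SE 0.26, adjusted p = 0.0993), and without pool 2 of WT it was 0.97 with an adjusted p of 0.0295. The log2 ratio of Faah to Napepld differed between TRAP and input by 0.05 ± 0.57 (SD over 6 pools, exact permutation p = 0.875).

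Among the opioid receptors, Oprm1 had fewer counts in TRAP, near the floor. The μ receptor gene spans 3308332 to 3588035 of chromosome 10 on the minus strand of mm9 (the plus strand in GRCm38.p6), with 96 exonic bases (1.18%) shared with the antisense gene Ipcef1. Its raw counts were 3, 4 and 3 in WT TRAP 1 to 3, 10, 2 and 5 in KO TRAP 2 to 4, 14, 20 and 16 in WT input 1 to 3 and 26, 13 and 14 in KO input 2 to 4. All TRAP libraries had fewer counts than all input libraries, and KO TRAP 2, the library with the high Gad2 and Slc32a1 levels, had the most of the 6. Summed over 3 libraries, WT TRAP held 10 counts against 50 in WT input, a ratio of 0.181 (exact 95% counting interval 0.0818 to 0.361), and KO TRAP held 17 against 53, a ratio of 0.362 (0.197 to 0.636). The edgeR log2 ratio over both genotypes was -1.92 (SE 0.49, adjusted p = 0.00223), lower in 6 of 6 pools, and -2.07 without pool 2 of KO. Oprm1 entered this fit only through input, where it is high, so these values are a description and not support for a difference.

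The δ and κ receptor genes did not pass. Oprd1, on chromosome 4 from 131666641 to 131700401 on the minus strand of mm9, stood at 4.10, 2.12 and 5.06 CPM in WT TRAP 1 to 3, at 2.80, 2.20 and 5.88 CPM in KO TRAP 2 to 4, at 8.44, 4.59 and 8.40 CPM in WT input 1 to 3 and at 8.79, 2.67 and 3.93 CPM in KO input 2 to 4. It was lower in TRAP in 5 of 6 pools, KO pool 4 being the exception, and the log2 ratio was -0.70 (SE 0.37, 95% interval -1.47 to 0.06, edgeR adjusted p = 0.135). That ratio was -0.31 without pool 2 of KO (adjusted p = 0.604) and -1.03 without pool 4 of KO. Oprk1, on chromosome 1 from 5578574 to 5596212 on the plus strand of mm9, had 2 to 10 counts in all 12 libraries and was left out of the edgeR tests by the filter on low counts. Its summed counts were 9 in WT TRAP against 23 in WT input, a ratio of 0.354 (exact 95% counting interval 0.144 to 0.794), and 18 in KO TRAP against 20 in KO input, a ratio of 1.02 (0.507 to 2.02). The ratio within pools was lower in 5 of 6 pools (exact sign-flip permutation p = 0.3125).

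Oprl1 did not pass the test between the fractions. The gene lies on chromosome 2 from 181449721 to 181455690 on the plus strand of mm9. The levels were 29.9, 28.0 and 20.0 CPM in WT TRAP 1 to 3, at 28.0, 28.6 and 23.3 CPM in KO TRAP 2 to 4, at 25.6, 21.6 and 16.1 CPM in WT input 1 to 3 and at 19.5, 34.7 and 23.4 CPM in KO input 2 to 4. The groups overlapped throughout, and the log2 ratio of TRAP to input was 0.18 (SE 0.17, 95% interval -0.17 to 0.52, edgeR adjusted p = 0.423), positive in 4 of 6 pools. It was 0.09 without pool 2 of KO and 0.30 without pool 3 of KO.

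**Figure D3:**
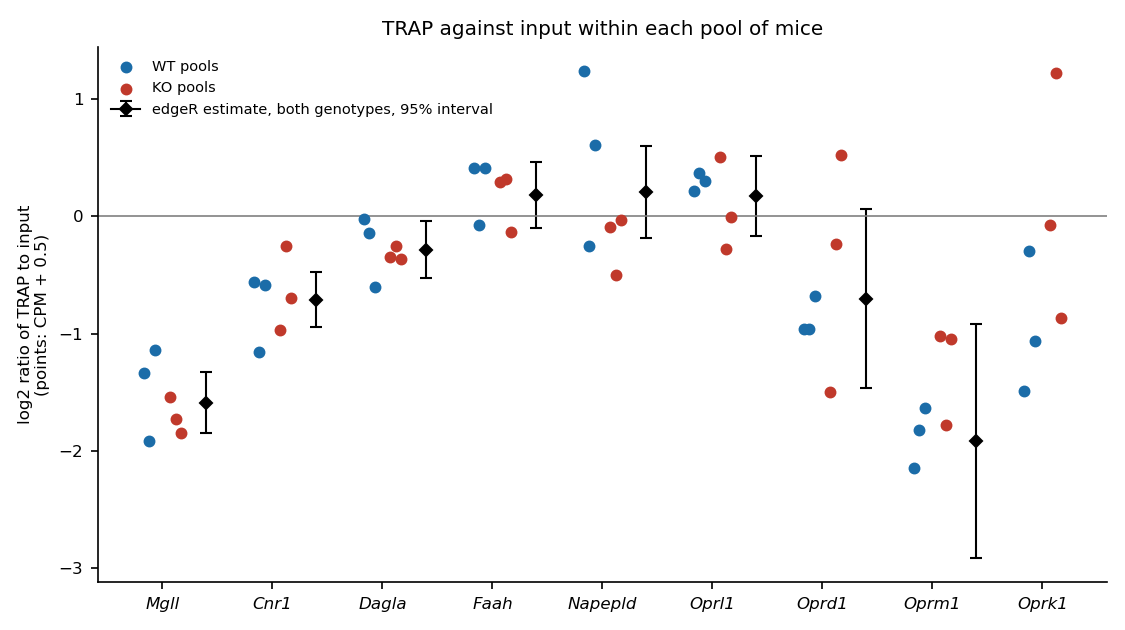
Log2 ratio of TRAP to input of the same pool for each gene, 1 point per pool (3 WT, 3 KO), with the edgeR estimate over both genotypes and its 95% interval beside them. Oprk1 has no estimate. All 6 pools lie below 0 for Mgll, Cnr1, Dagla and Oprm1, and the interval of Dagla ends at -0.04. The share of all genes with 6 pools below 0 is not given here.

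Within each genotype the same receptor and enzyme stood out. In WT, 3 of 8 genes tested were lower in TRAP, Cnr1 at a log2 ratio of -0.77 (SE 0.16), Mgll at -1.45 (SE 0.21) and Oprm1 at -2.40 (SE 0.70, edgeR adjusted p = 0.0174), and 0 were higher, where 13.1% of all 12426 genes tested were lower and 11.8% higher. Oprm1 had 3 to 4 counts in each WT TRAP library and entered this fit too only through input, so its ratio is a description and it adds nothing to the count for Cnr1 and Mgll. The call of Oprm1 in WT was lost without pool 2 (adjusted p = 0.112) or pool 3 (adjusted p = 0.122). In KO, 2 of 8 were lower, Cnr1 at -0.66 (SE 0.15) and Mgll at -1.73 (SE 0.14), and 0 were higher, where 15.9% of all 12463 genes tested were lower and 13.2% higher. Oprm1 in KO had a log2 ratio of -1.45 (SE 0.62, adjusted p = 0.0859).

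KO against WT asks whether FosB knockout in these neurons altered the genes, and no member passed the test in either fraction. In TRAP, 0 of the 7 genes tested had an edgeR adjusted p under 0.05, where 0.0682% of all 11727 genes tested did, and 1 had an unadjusted p under 0.05, as did 6.05% of all genes. In input, 0 of 8 passed, where 0.0312% of all 12816 genes tested did, and again 1 had an unadjusted p under 0.05, as did 2.89% of all genes. DESeq2 called 0 members in both fractions, with 1 unadjusted p under 0.05 in TRAP and 0 in input, beside 3.19% and 1.65% of all genes with a DESeq2 fit. For all 9 genes the KO and WT libraries overlapped in TRAP and in input, where 11.9% and 8.38% of the genes tested did not overlap.

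Cnr1 had the smallest p of the members in TRAP, and the 3 KO libraries ran from 56.2 to 78.6 CPM against 43.8 to 59.6 CPM in WT. KO TRAP 2 was the one within the WT range. The log2 fold change was 0.41 (SE 0.16, 95% interval 0.08 to 0.75), with an unadjusted edgeR p of 0.0165 and an adjusted p of 0.737, and the exact permutation p was 0.2, where 3 pools against 3 cannot go below 0.10. It was 0.54 without KO TRAP 2 (adjusted p = 0.634) and 0.31 without KO TRAP 4. In input, the log2 fold change of Cnr1 was 0.29 (SE 0.15, 95% interval -0.03 to 0.61, edgeR adjusted p = 1).

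The enzymes showed smaller estimates in TRAP. The log2 fold change of KO over WT was -0.08 (95% interval -0.45 to 0.28) for Dagla, -0.16 (-0.62 to 0.29) for Mgll, -0.02 (-0.38 to 0.34) for Faah and -0.29 (-0.91 to 0.32) for Napepld. The intervals for Dagla, Mgll and Faah end within 0.62 of 0 on the log2 scale. In input the same genes stood at 0.00 (-0.33 to 0.34), 0.10 (-0.19 to 0.39), 0.07 (-0.36 to 0.51) and 0.48 (0.02 to 0.94). That of Napepld had an unadjusted edgeR p of 0.0402 and an adjusted p of 1, with WT input at 18.1 to 25.0 CPM and KO input at 24.5 to 36.7 CPM.

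Oprd1 and Oprm1 had the widest intervals of the members tested, whereas that of Oprl1 was closer in width to those of the enzymes. In TRAP the log2 fold change of KO over WT was -0.05 (95% interval -1.22 to 1.13) for Oprd1, 0.03 (-0.42 to 0.47) for Oprl1, and Oprm1 and Oprk1 were not tested. Summed counts of Oprm1 were 17 in KO TRAP and 10 in WT TRAP, a ratio of 1.97 (exact 95% counting interval 0.851 to 4.81), and those of Oprk1 were 18 and 9, a ratio of 2.32 (0.988 to 5.85). The 10 counts of KO TRAP 2 were most of the 17 for Oprm1. In input the log2 fold change was -0.01 (-1.05 to 1.03) for Oprm1, -0.48 (-1.45 to 0.49) for Oprd1 and 0.30 (-0.21 to 0.81) for Oprl1, with edgeR adjusted p = 1 for each.

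**Figure D4:**
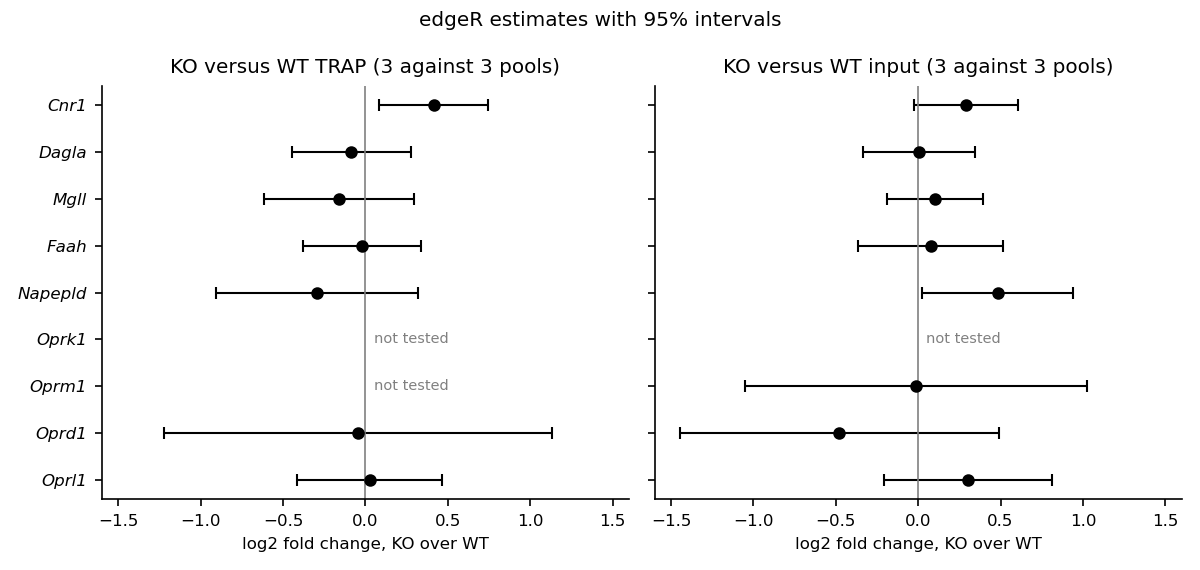
Log2 fold change of KO over WT with its 95% interval by edgeR for each gene, in TRAP (left) and input (right), 3 against 3 pools. In TRAP the interval of Cnr1 alone excludes 0, from 0.08 to 0.75, and in input that of Napepld alone, from 0.02 to 0.94, both before adjustment.

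The ratio of TRAP to input was also compared between genotypes as an interaction over all 12 libraries. None of the 8 genes tested passed by edgeR or DESeq2, where 0.00757% of all 13214 genes tested did by edgeR, and 0 had an unadjusted p under 0.05 by either tool, beside 2.71% of all genes by edgeR and 1.86% by DESeq2. Napepld had the smallest p, with a log2 ratio lower in KO than in WT by -0.77 (SE 0.38, 95% interval -1.55 to 0.01, edgeR unadjusted 0.0521, adjusted 1). Its within-pool ratios were 1.24, -0.25 and 0.61 in WT pools 1 to 3 and -0.09, -0.50 and -0.03 in KO pools 2 to 4, so that WT pool 2 lay between KO pools 2 and 3 and the genotypes overlapped. Without pool 1 of WT the difference was -0.40 and without pool 2 of WT -1.15 (edgeR unadjusted 0.00546, adjusted 1). For Mgll the difference was -0.26 (95% interval -0.78 to 0.27), and it was -0.46 without pool 2 of WT and -0.059 without pool 3 of WT. For Cnr1 it was 0.13 (-0.34 to 0.59). For Oprm1 it was 0.97 (-1.03 to 2.98), and 0.62 without pool 2 of KO.

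Other genes of the endocannabinoid pathway were called in both directions between TRAP and input. Of 16 listed, 14 were tested, 2 were higher in TRAP and 4 lower, beside 19.6% higher and 22.5% lower of all genes tested, with a median log2 ratio of -0.01. Higher were Plcb1, a phospholipase C that yields the diacylglycerol used by DAGL, at 0.34 (SE 0.06, edgeR adjusted p = 0.000127), and Cnrip1, a CB1-interacting protein, at 0.26 (SE 0.09, adjusted p = 0.0173, and 0.0541 without pool 2 of KO). Gpr55, an orphan receptor that responds to some cannabinoid ligands, had a log2 ratio of 0.28 (SE 0.53, adjusted p = 0.701) at 1 to 15 counts a library. The largest differences downward were those of Fabp7, a fatty acid binding protein of astrocytes, at -3.03 (SE 0.23), and Abhd4, a lipase of the anandamide route, at -1.87 (SE 0.15, adjusted p = 1.33e-10). Plcb4 and Naaa were the other 2, at -1.22 and -1.06. Without pool 2 of KO, Naaa no longer passed (-0.85, adjusted p = 0.0675), and Fabp5, another fatty acid binding protein, did (-0.51, adjusted p = 0.0117). Daglb, the other 2-AG synthase, at 0.15, and the 2-AG hydrolases Abhd6 at -0.01 and Abhd12 at 0.11 did not pass. Abhd12 stood at 97.8 to 145 CPM in TRAP and 69.3 to 138 CPM in input. Cnr2, the CB2 receptor, had 0 to 3 counts in every library and Trpv1 had 0 in all 12, which allows at most 3 counts each.

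Opioid peptide precursors were present at low levels or varied widely between pools. Of 11 genes for peptides, their processing and breakdown, all were tested, 1 was higher in TRAP and 2, Pnoc and Mme, were lower, beside 19.6% and 22.5% of all genes tested, with a median log2 ratio of 0.03. Both Pnoc and Mme failed the filter among TRAP libraries alone and entered only through input, where they are high, so their lower level is a description. Penk, the enkephalin precursor, ran from 25.7 to 93.0 CPM in TRAP and from 29.6 to 126 CPM in input and did not pass (log2 ratio 0.26, edgeR adjusted p = 0.693). Pcsk2, a convertase that cleaves the precursors, was higher at 0.44 (SE 0.11, adjusted p = 0.00164). Mme, which degrades enkephalin, had a log2 ratio of -1.93 (SE 0.74, adjusted p = 0.0359, and 0.0973 without pool 2 of KO). Dpp3, another peptidase that degrades enkephalin, stood at 0.39 (SE 0.16, adjusted p = 0.0529).

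Pdyn, the dynorphin precursor, was high in a single TRAP library, the only one in which Pnoc, the nociceptin precursor, had counts. Pdyn had 90 counts in KO TRAP 2 and 1 to 10 in the other 5 TRAP libraries, and 4 to 33 in input. Pnoc had 8 counts in KO TRAP 2 and 0 in the other 5, against 3 to 19 in input. Pomc stood at 0.733 to 4.19 CPM in TRAP and 1.17 to 3.98 CPM in input. KO TRAP 2 is also the library with the high Gad2 and Slc32a1 levels given above, and the part of GABA neurons or other cells in these values was not tested.

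Genes that couple these receptors to their effectors were called in both directions. Of 17 genes for Gi/o coupling, desensitization and channels, all were tested, 5 were higher in TRAP and 5 lower, beside 19.6% higher and 22.5% lower of all genes tested, with a median log2 ratio of -0.12. Gnaz, a Gi-family α subunit, was higher at 0.57 (SE 0.08, edgeR adjusted p = 8.04e-07) and so was Arrb2, the β-arrestin 2 gene, at 0.49 (SE 0.14, adjusted p = 0.00576). Grk5, a receptor kinase, was lower at -0.90 (SE 0.24, adjusted p = 0.00358) and so was Gnai2 at -0.53 (SE 0.08, adjusted p = 2.67e-06). Gnai1, Rgs4 and Adrbk1 were the other 3 higher, and Kcnj6, Arrb1 and Adrbk2 the other 3 lower, Adrbk2 not without pool 2 of KO. Between genotypes, 0 genes of the 3 lists passed in TRAP or in input by edgeR. At an unadjusted p under 0.05, each list had 0 in TRAP and 1 in input, namely Naaa, Dpp3 and Arrb2, beside 6.05% and 2.89% of all genes tested.

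The differences between TRAP and input in Mgll, Cnr1 and Oprm1 stood beside large differences in markers of other cell types. Of 7 astrocyte markers, 7 were lower in TRAP, with a median log2 ratio of -3.22 and a summed level of 314 to 389 CPM in TRAP and 1935 to 2376 CPM in input. The 6 oligodendrocyte markers summed to 150 to 195 CPM in TRAP and 606 to 997 CPM in input, and the 6 microglia markers to 2.36 to 12.7 CPM and 61.3 to 110 CPM, with P2ry12 at 0 in 5 of 6 TRAP libraries. All 12 had lower ratios past the threshold, but Mog, Mag and the 6 microglia markers failed the filter among TRAP libraries alone and entered only through input. Of 10 GABA neuron markers, 8 were lower and 1, Cck, was higher at 0.74, with a summed level of 427 to 895 CPM in TRAP and 900 to 1080 CPM in input, the highest TRAP value being that of KO TRAP 2. Without pool 2 of KO, 9 of the 10 were lower, with Sst at -0.83 (edgeR adjusted p = 5.95e-05). Vip was below the filter among TRAP libraries alone. Of 8 glutamate neuron markers, 5 were higher, with a summed level of 4883 to 5417 CPM in TRAP and 4021 to 4596 CPM in input, and none was lower. Of 4 dentate gyrus markers, 2 were lower and 1 higher. Of 4 hypothalamus and amygdala markers tested, 1 was lower and 2 higher, and of 2 endothelium markers tested, 1 was lower. Flt1 and Zic1 of these lists were below the filter among TRAP libraries alone. The part of these cell types in the ratios of Mgll, Cnr1 and Oprm1 was not tested.

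**Figure D5:**
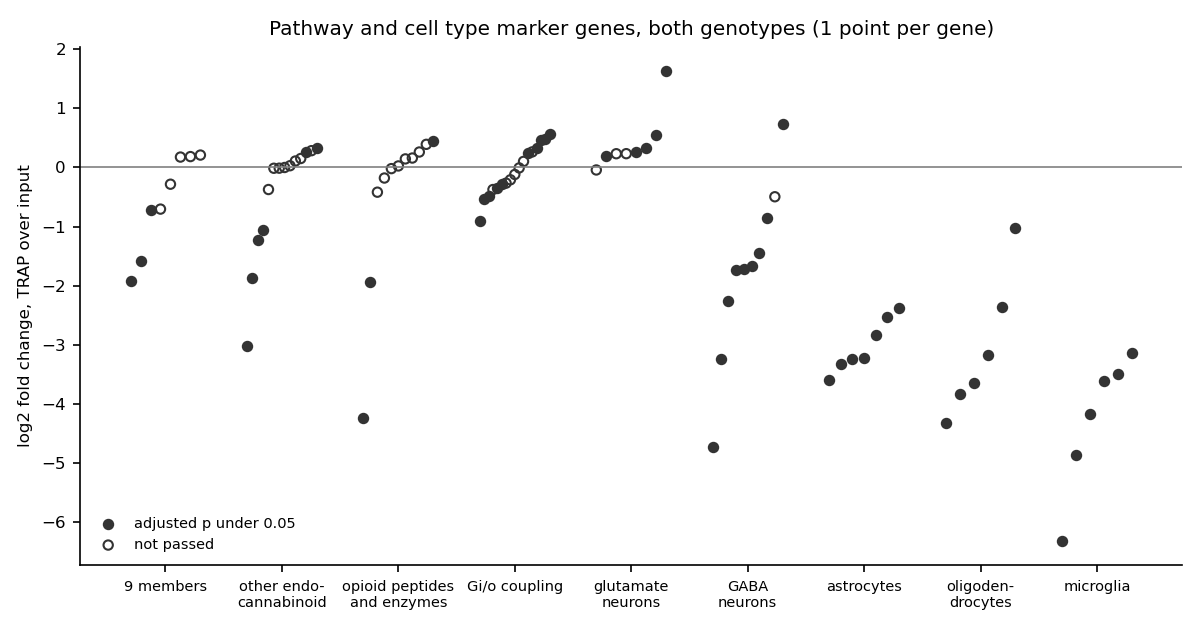
Log2 ratio of TRAP to input over both genotypes by edgeR for each tested gene of the 9 members, the 3 pathway lists and 5 marker lists, 1 point per gene, filled where the adjusted p is under 0.05. Mgll at -1.59 and Oprm1 at -1.92 lie above the astrocyte marker median of -3.22, and the Gi/o genes lie between -0.90 and 0.57.

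No marker passed the test between genotypes by edgeR, and the summed levels are given beside the estimates for Cnr1 and Napepld. The 4 dentate gyrus markers summed to 238 to 273 CPM in WT input and 280 to 370 CPM in KO input, with a median log2 fold change of 0.66, and 3 of the 4 had an unadjusted edgeR p under 0.05, where 2.89% of all genes did, with adjusted p of 0.92 to 1. In TRAP the sums of the same markers overlapped, at 259 to 341 CPM in WT and 253 to 322 CPM in KO. Calb1 carried most of each sum, at means of 299 and 283 CPM in WT and KO TRAP and 207 and 252 CPM in input. Prox1 had means of 4.87 and 5.79 CPM in WT and KO TRAP and 37.2 and 57.8 CPM in input. Summed GABA neuron markers ran from 510 to 668 CPM in WT TRAP and from 427 to 895 CPM in KO TRAP. Behind these sums the log2 fold changes of KO over WT in TRAP had both signs, at -1.35 for Npy (edgeR adjusted p = 0.0618) and -0.99 for Pvalb against 1.43 for Slc32a1 and 0.89 for Gad2, and none of the 9 tested passed. The values of Slc32a1 and Gad2 rest on KO TRAP 2, the highest library of each. KO TRAP ran from 2.94 to 26.6 CPM for Slc32a1 and from 27.6 to 187 CPM for Gad2. WT TRAP ran from 3.73 to 5.42 CPM and from 39.1 to 49.4 CPM. The part of dentate gyrus cells and GABA neurons in the estimates for Cnr1 and Napepld was not tested, and the estimate for Cnr1 in TRAP was larger without KO TRAP 2.

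Genes with a similar pattern were sought as those with the smallest mean absolute difference from a member in centred log2 level over the 12 libraries, among 10763 genes with a mean of at least 5 CPM. For Mgll these were Cdyl (0.13) and Rapgef3 (0.15), for Cnr1 Mid2 (0.11) and Klf12 (0.12), and for Dagla Wnk2 (0.05) and Aatk (0.09). For Faah they were Actr8 (0.08) and Ubr7 (0.08), for Napepld Ppib (0.17) and Zfp759 (0.19), and for Oprl1 Gmeb1 (0.12) and Elmod1 (0.14). Napepld had the least close neighbours of the 6. Oprd1, Oprm1 and Oprk1 were below the level set for this search. The likeness is a description over libraries that share pools and fractions.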

How the data were processed

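For each of the 12 libraries the authors deposited unnormalized counts of reads per gene, made with TopHat on mm9 and HTSeq-count on Gencode vM1. No filter was applied to them, reads with several alignments were set aside, and the strand setting of the counting is not given in the sources used here. Between 20.6% and 27.1% of reads with a single alignment were on no gene. Groups came from the sample labels.

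The main test was that of edgeR 4.0.16, run in R 4.3.3 (expression filter by group, TMM, robust quasi-likelihood test), with Benjamini-Hochberg adjustment over all genes tested and a threshold of 0.05. The standard error is the log2 fold change divided by the square root of F. Between genotypes, pools are different mice. Whether pools were processed separately throughout is not stated, so p-values measure the spread between these pools. Exact two-sided permutation tests in scipy 1.17.1 used log2(CPM + 0.5), and those of single members were not adjusted over the members. Likeness was limited to genes of at least 5 CPM and 2 genes per member. Stretches of 75 bases of the members' exons were aligned to mm9 with minimap2 2.31, and only Oprm1 had any with another place, 5 of 1300. The steps were tested on simulated data.

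TRAP and input of 1 pool come from the same mice by their titles, and their deviations correlated at 0.0617 to 0.124, so the pool served as a replicate block in an alternative fit. The other alternatives were RLE, library totals, no filter, a mean of at least 10 counts, no mitochondrial genes, DESeq2 1.42.0, all 12 libraries in 1 fit, and leaving out each pool. The members and gene lists were chosen with earlier results of these data known. All members were described, and of the other pathway genes those with the 2 highest and 2 lowest ratios in each list, with peptide precursors, 2-AG enzymes, Cnrip1 and Cnr2 always given. Plcb4, Naaa, Fabp5 and the remaining Gi/o genes were named after their values were seen, as was the choice of printed promoter windows.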

Additional observations from a re-analysis of the deposited data

How the results depend on the processing

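Over the 74 alternative fits, the number of members called between genotypes and in the difference of ratios stayed at 0, that for TRAP against input stayed at 2 in KO, was 2 or 3 in WT and 3 or 4 over both genotypes, and Cnr1 and Mgll passed in each of these TRAP against input fits. Of 578 recomputed log2 values of members, 538 kept direction and side of the threshold, 33 changed sign, 5 passed the threshold and 2 lost it, and the 33 were all values that pass no test. With library totals, KO over WT was 0.00974 for Faah in TRAP and -0.00688 for Dagla in input. With the replicate block, numbers 2 and 3 of KO and WT stand for different mice, and the values in input were -0.085 for Dagla, -0.26 for Faah and 0.10 for Oprm1. The block joining TRAP and input of a pool changed no other member call than that of Dagla (-0.29, adjusted p 0.0483 by edgeR).

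Leaving out single libraries, KO over WT in TRAP ran from -0.19 to 0.056 for Dagla, -0.31 to 0.12 for Mgll, -0.072 to 0.049 for Faah, -0.62 to 0.030 for Napepld, -0.59 to 0.22 for Oprd1 and -0.12 to 0.15 for Oprl1. In input it ran from -0.094 to 0.083 for Dagla, -0.020 to 0.18 for Mgll, -0.15 to 0.25 for Faah, -0.44 to 0.18 for Oprm1, 0.15 to 0.43 for Cnr1, 0.27 to 0.64 for Napepld, -1.10 to -0.17 for Oprd1 and 0.03 to 0.47 for Oprl1, and with the replicate block it was 0.055 for Cnr1 and 0.20 for Napepld. TRAP over input in KO ran from -1.20 to 0.27 for Oprd1 and -0.18 to 0.23 for Oprl1. The difference of these ratios between genotypes ran from -0.26 to 0.0097 for Dagla, -0.060 to 0.25 for Cnr1, -0.27 to 0.078 for Faah, -0.27 to 1.19 for Oprd1, -1.15 to -0.40 for Napepld, -0.46 to -0.059 for Mgll, 0.62 to 1.20 for Oprm1 and -0.49 to -0.071 for Oprl1. TRAP over input in WT ran from -2.53 to -2.17 for Oprm1 and 0.20 to 0.97 for Napepld, and that over both genotypes from -0.34 to -0.20 for Dagla, 0.02 to 0.40 for Napepld and -1.03 to -0.31 for Oprd1.

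Over all genes, calls between KO and WT TRAP numbered 8, and from 5 to 41 over the alternatives, with 13 by DESeq2. In input they numbered 4, and from 1 to 20, the highest with the replicate block. TRAP against input gave 3096 calls in WT and 1289 without pool 3, and 3626 in KO and 1982 without pool 4. Counts of a few reads for Oprm1, Oprk1, Pdyn and Pnoc limit what those genes can show. Pathway list counts under the alternatives were computed after the data were seen.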
